A study of Mus musculus with 16 samples.

Results

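The core pluripotency factors examined were 6 genes chosen by name, Pou5f1, Sox2, Nanog, Sall4, Utf1 and Zfp281, of 35975 genes to which the deposited transcripts could be mapped. The study sequenced messenger RNA of ES-E14TG2a mouse embryonic stem cells of the genotypes TKO and WT as they left the naive state and became epiblast-like cells (EpiLCs). Groups were TKO on days 0, 2, 4 and 7 and WT on the same days, each with 2 libraries labelled as biological replicates, which makes 16 libraries. Day 0 cells of both genotypes had been kept on fibronectin in serum-free N2B27 to which vitamin C, LIF and the Gsk3 and MEK inhibitors had been added; for the later days both were moved to N2B27 with Fgf2, Activin A and a little Knock-out Serum, and were split once more on day 4. TKO is not spelled out in the labels and is taken here to mean loss of the DNA methyltransferases Dnmt1, Dnmt3a and Dnmt3b. Whether each genotype is 1 clone or several is not stated, and nothing says that the libraries of a group came from separate derivations, so the p-values measure only the spread between these libraries.

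Pou5f1 encodes OCT4, a POU-domain transcription factor without which the mouse inner cell mass is not pluripotent. OCT4 and the HMG-box factor SOX2 bind DNA side by side at composite octamer and SOX elements, among them one close to the Nanog start, and NANOG, a homeodomain protein, holds cells in the naive state. SALL4 is a zinc-finger protein that maintains Pou5f1 expression, UTF1 is a chromatin-bound cofactor and a known target of OCT4 and SOX2, and ZFP281 is a zinc-finger factor that favours the passage from naive to primed pluripotency. In mouse, Nanog is known to dip between the naive and the later epiblast, while Pou5f1 is kept throughout.

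The upstream sequences of Nanog and Sox2 are shown because both hold matches to short octamer and SOX cores. Whether these matches bear on the courses of the 2 genes below was not tested. They come from the RefSeq promoter table (build GRCm38.p6, plus strand), end at the base before the RefSeq start, and are written 5′ to 3′ with the octamer core ATGCAAA and the SOX cores ACAATG and ACAAAG, on either strand, in capitals.
Nanog, chr6:122707239-122707488: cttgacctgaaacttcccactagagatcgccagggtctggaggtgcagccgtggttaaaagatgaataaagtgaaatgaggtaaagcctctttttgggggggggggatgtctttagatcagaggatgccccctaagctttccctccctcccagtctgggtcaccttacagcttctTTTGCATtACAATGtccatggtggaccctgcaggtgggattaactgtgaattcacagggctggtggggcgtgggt
Sox2, chr3:34649745-34649994: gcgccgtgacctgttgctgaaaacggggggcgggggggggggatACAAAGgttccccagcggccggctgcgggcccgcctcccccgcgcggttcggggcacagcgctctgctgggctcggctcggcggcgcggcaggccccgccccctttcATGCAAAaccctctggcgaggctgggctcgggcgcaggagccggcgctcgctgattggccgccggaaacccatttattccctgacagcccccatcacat
In the Nanog window the octamer core began 75 bases before the start and the SOX core ACAATG 67 bases before it, with 1 base between them. Only 3 of 32851 windows of 250 upstream bases in the table (0.009%) held these cores in this order and orientation, read on either strand, with at most 1 base between. Other orders or orientations, and the core ACAAAG, were not counted. The search was set up after the Nanog sequence had been seen, so this share is a description with no test. The Sox2 window held an octamer core beginning 99 bases before the RefSeq start and an ACAAAG core 206 bases before it, and that start lies 410 bases upstream of the gene start used for the counts. The octamer core alone occurred in 4.1% of windows, ACAATG in 10.7% and ACAAAG in 16.5%, and the full octamer ATGCAAAT, found in 1.6%, was in none of the 5 member windows available.

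Utf1 and Pou5f1 are shown with their CpG dinucleotides in capitals, since CpG is what the assumed lost enzymes methylate. Both stop before the annotated gene start and are shorter than the 250 bases before the RefSeq start used for the counts below. The Utf1 stretch shown has 183 bases and holds 10 of its 14 CpGs, and the Pou5f1 stretch has 236 bases and all 8.
Utf1, chr7:139943606-139943788: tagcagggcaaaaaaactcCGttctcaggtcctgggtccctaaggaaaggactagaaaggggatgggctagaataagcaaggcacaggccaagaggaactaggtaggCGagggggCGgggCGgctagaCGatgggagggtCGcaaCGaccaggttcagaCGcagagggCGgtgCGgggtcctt
Pou5f1, chr17:35505782-35506017: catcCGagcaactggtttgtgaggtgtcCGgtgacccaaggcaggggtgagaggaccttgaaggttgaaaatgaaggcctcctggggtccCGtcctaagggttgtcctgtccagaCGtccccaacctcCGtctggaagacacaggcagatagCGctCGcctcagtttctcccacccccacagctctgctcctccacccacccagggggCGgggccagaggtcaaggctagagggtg
Neither window matched the octamer or SOX cores. Per 250 upstream bases there were 27 CpGs at Sox2, 19 at Zfp281, 14 at Utf1, 8 at Pou5f1 and 3 at Nanog, beside a median of 6 over all windows. Sox2 thus had more CpGs than 91.4% of windows had, and Nanog more than 29.0%. The GC box GGGCGG, in either orientation and found in 32.7% of windows, occurred 4 times at Utf1, 4 times at Zfp281, 2 times at Sox2, 1 time at Pou5f1 and not at Nanog. Of those at Utf1, 3 lie in the stretch shown. TATAAA (12.4% of windows) was in none of the 5 windows. These are letter matches in short windows and carry no binding or methylation measurement.

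Total estimated counts ran from 33168178 to 47064338 in TKO libraries and from 39799498 to 58197630 in WT libraries, and each member had at least 534 counts in every library. The 2 Nanog pseudogenes listed, Nanog-ps1 and Nanog-ps2, had 0 counts in every library. Dnmt1 stood between 36.2 and 55.9 CPM in TKO libraries and between 310 and 545 in WT libraries. Dnmt3b was not called lower in TKO on day 0 (log2 fold change 0.04 ± 0.20, SE; edgeR adjusted p = 0.941) and was lower on days 2 (-0.91 ± 0.19, 0.00845), 4 (-1.22 ± 0.19, 0.000444) and 7 (-1.71 ± 0.19, 1.39e-05). Dnmt3a was lower on days 0, 2 and 7 and not called on day 4 (-1.61 ± 0.56, 0.0553). These levels cover each whole gene and do not show which part, if any, was deleted. Most groups had 15 or fewer genes at 5 CPM or more that differed over 2-fold between their libraries, but TKO day 4 had 168, WT day 0 had 117 and WT day 4 had 80. TKO day 4 replicates also differed in Dnmt3a, at 187 and 33.9 CPM. Results of the members on days 0 and 4 are given with each library left out where that matters. For other genes and for the lists no such values are given.

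Per length, Pou5f1 was the most abundant of the 6 transcripts in every group, and the order below it changed with the day. By the deposited TPM, Pou5f1 averaged 1043 ± 6.88, 1565 ± 3.49, 1115 ± 135 and 855 ± 9.03 TPM in TKO on days 0, 2, 4 and 7, and 1003 ± 92.5, 1702 ± 27.4, 1096 ± 55.4 and 1035 ± 49.8 TPM in WT (SD, n = 2). Nanog was next on day 0, at 548 ± 1.98 TPM in TKO and 454 ± 52.4 in WT, followed by Sox2 at 157 ± 1.58 TPM in TKO and 163 ± 8.11 in WT. On day 2 Utf1 held the second place, at 369 ± 42.5 TPM in TKO and 390.4 ± 21.0 in WT. Nanog and Sox2 could not be ranked in TKO that day (72.1 ± 0.89 and 71.9 ± 3.23 TPM), while in WT Nanog, at 55.8 ± 0.708, lay below Sox2 at 78.9 ± 1.80 and overlapped Zfp281. On day 4 the libraries of Utf1 and Nanog overlapped in WT but not in TKO. By day 7 Nanog was again second in both genotypes, Sox2 was the lowest of the 6 in TKO at 14.5 ± 1.06 TPM, and Zfp281 was the lowest in WT at 35.2 ± 0.169.

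The first question was how each factor moved as the cells left the naive state. In both genotypes Nanog fell by day 2 to its lowest level and then partly returned, Utf1, Zfp281 and Pou5f1 peaked on day 2, and Sox2 declined through day 4. Levels are CPM, counts scaled to the effective library size. Changes were called by the edgeR quasi-likelihood test on all 16 libraries where the p, adjusted over 18489 genes after Benjamini and Hochberg, was under 0.05.

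**Figure D1:**
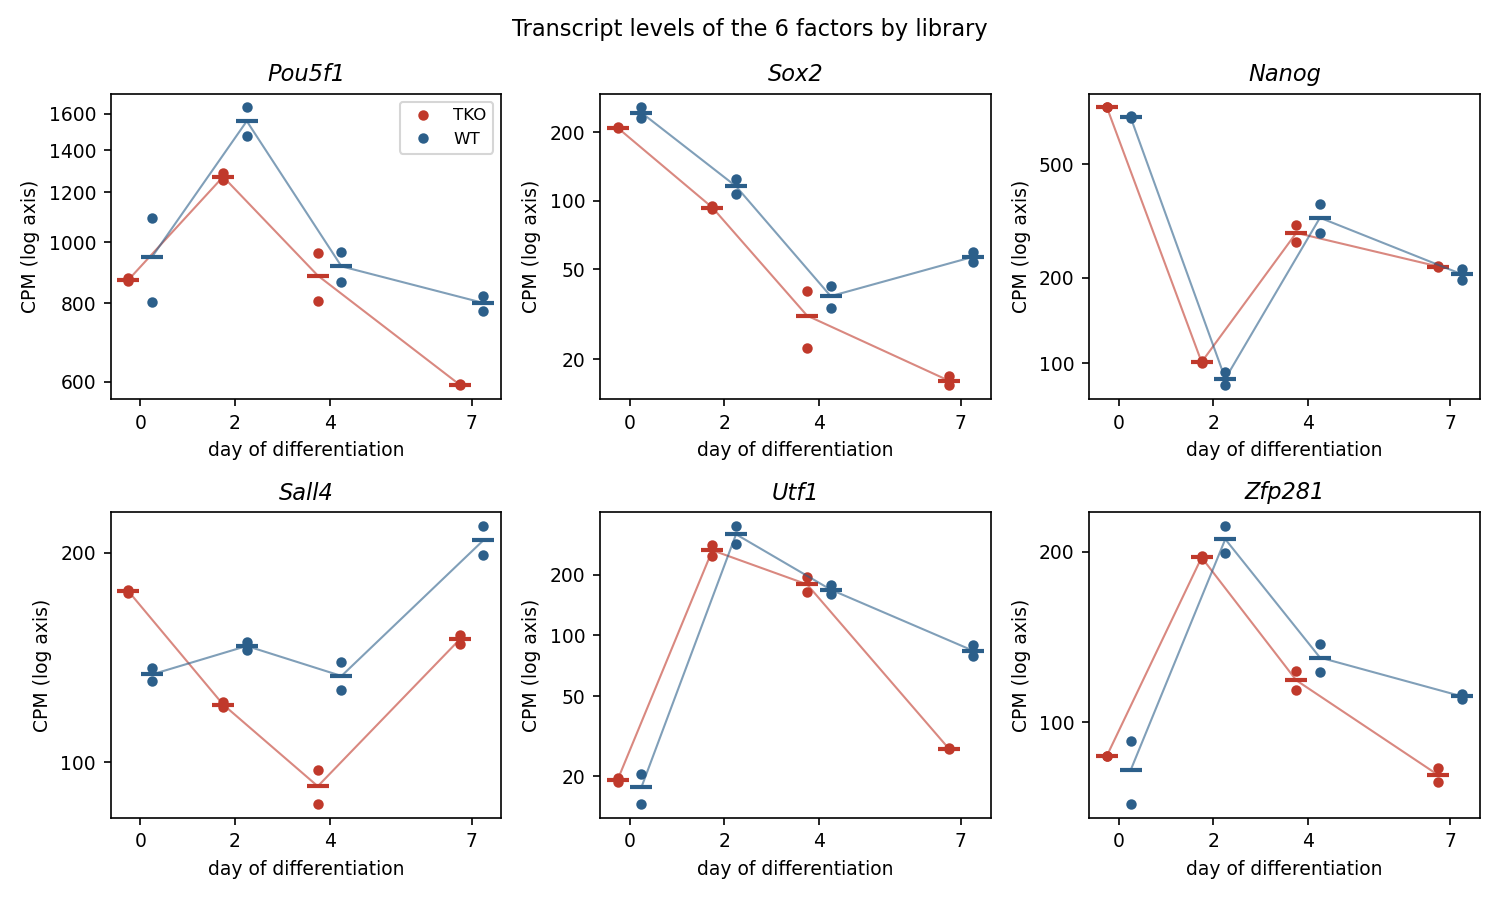
Level of each factor (CPM, log axis) by day of differentiation, TKO in red left of WT in blue; points are libraries, short bars are means of 2 libraries and lines join the means. Nanog is lowest on day 2 in both genotypes, and on day 7 the TKO points of Sox2 and Utf1 lie far below those of WT.

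Nanog (chromosome 6, 122707489 to 122714633, plus strand, GRCm38) had 792 and 792 CPM on day 0 in TKO, 102 and 100.4 on day 2, 307 and 268 on day 4, and 218 and 219 on day 7. In WT it had 738 and 727 CPM on day 0, 83.6 and 92.9 on day 2, 286 and 363 on day 4, and 196 and 215 on day 7. Day 2 was the lowest point in all 4 libraries of that day, and no later library came back to the day 0 level. The log2 change from day 0 to day 2 was -2.97 ± 0.11 in TKO (SE; adjusted p = 9.45e-11) and -3.05 ± 0.11 in WT (7.73e-11). From day 2 to day 4 Nanog rose by 1.51 ± 0.11 in TKO (2.34e-07) and by 1.88 ± 0.11 in WT (1.46e-08), and from day 4 to day 7 it changed by -0.39 ± 0.11 in TKO (0.00784) and -0.66 ± 0.11 in WT (0.000252). The last TKO step was not called without TKO day 4 replicate 1 (-0.30, 0.0673) or on TPM values (-0.20, 0.155).

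Utf1 (chromosome 7, 139943789 to 139945112, plus strand) moved the opposite way on day 2. It had 19.7 and 18.8 CPM on day 0 in TKO, 247 and 283 on day 2, 164 and 195 on day 4, and 27.2 and 27.5 on day 7. In WT it had 20.6 and 14.6 CPM on day 0, 286 and 350 on day 2, 160 and 178 on day 4, and 79.0 and 89.3 on day 7. The rise to day 2 was 3.78 ± 0.16 on the log2 scale in TKO (adjusted p = 3.68e-10) and 4.17 ± 0.17 in WT (1.72e-10). Utf1 then declined at both steps, by day 7 to 0.51 ± 0.15 above its own day 0 in TKO (0.00989) and to 2.26 ± 0.16 above it in WT (2.10e-08). The TKO call of day 7 against day 0 was lost without TKO day 0 replicate 2 (0.0639), and that of day 4 against day 2 (-0.56 ± 0.14, 0.00581) without TKO day 2 replicate 2 (0.0646) or TKO day 4 replicate 1 (0.0604).

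Pou5f1 (chromosome 17, 35506018 to 35510772, plus strand) moved within a narrower range. It had 867 and 877 CPM on day 0 in TKO, 1287 and 1254 on day 2, 808 and 963 on day 4, and 592.5 and 595 on day 7. In WT it had 1094 and 803 CPM on day 0, 1478 and 1638 on day 2, 866 and 965 on day 4, and 779 and 823 on day 7. Its peak on day 2 stood above every library of the other days in both genotypes. The rise to day 2 was 0.54 ± 0.13 in TKO (adjusted p = 0.00218) and 0.72 ± 0.13 in WT (0.00023). From day 4 to day 7 it fell in TKO (-0.58 ± 0.13, 0.0022), and the WT difference of -0.19 ± 0.13 was not called (0.259); the difference between these steps was not called either (-0.38 ± 0.18, 0.162).

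Zfp281 (chromosome 1, 136624901 to 136630053, plus strand) had 87.1 and 87.2 CPM on day 0 in TKO, 197 and 194 on day 2, 114 and 123 on day 4, and 82.9 and 78.2 on day 7. In WT it had 71.6 and 92.7 CPM on day 0, 222 and 199 on day 2, 123 and 137 on day 4, and 112 and 109.9 on day 7. Every day 2 library lay above every library of another day of the same genotype. The rise to day 2 was 1.16 ± 0.11 in TKO (adjusted p = 4.85e-07) and 1.36 ± 0.11 in WT (9.74e-08). On day 7 it stood 0.43 ± 0.11 above day 0 in WT (0.00238), and in TKO the difference of -0.11 ± 0.11 was not called (0.355). The WT value was 0.26 without WT day 0 replicate 1 and 0.67 without WT day 0 replicate 2, called in both.

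Sox2 (chromosome 3, 34650405 to 34652461, plus strand) fell at each step up to day 4. It had 210.5 and 208 CPM on day 0 in TKO, 91.7 and 94.9 on day 2, 39.9 and 22.4 on day 4, and 15.4 and 16.8 on day 7. In WT it had 258 and 231 CPM on day 0, 107 and 125 on day 2, 33.8 and 42.1 on day 4, and 59.1 and 53.9 on day 7. The TKO libraries of day 4 were far apart, and on day 7 both WT libraries lay above both of day 4 while both TKO libraries lay below both of day 4. The change to day 2 was -1.17 ± 0.20 in TKO (adjusted p = 0.000229) and -1.08 ± 0.20 in WT (0.000373), and from day 2 to day 4 it was -1.58 ± 0.20 in TKO (4.67e-05) and -1.61 ± 0.20 in WT (2.30e-05). From day 4 to day 7 Sox2 fell again in TKO (-0.96 ± 0.21, 0.00245) and rose in WT (0.58 ± 0.20, 0.0377). The TKO value was -0.49 without TKO day 4 replicate 1 and -1.32 without TKO day 4 replicate 2, and was called in both. The WT rise was not called without WT day 4 replicate 1 (0.191), without WT day 7 replicate 1 (0.147) or 2 (0.0701), or with no filter on low counts (0.112).

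Sall4 (chromosome 2, 168748332 to 168767943, minus strand) was called apart between the genotypes from day 0 on. For day 2 only 5 of 13 alternatives kept the call. It had 177 and 175 CPM on day 0 in TKO, 119.9 and 122 on day 2, 97.5 and 87.0 on day 4, and 148 and 153 on day 7. In WT it had 131 and 137 CPM on day 0, 145 and 149 on day 2, 127 and 139 on day 4, and 219 and 199 on day 7. TKO libraries thus lay above those of WT on day 0 and below them on every later day. Sall4 fell from day 0 to day 2 in TKO (-0.54 ± 0.08, adjusted p = 3.72e-05) and was not called in WT (0.14 ± 0.08, 0.141), and the difference between these steps was called (-0.68 ± 0.11, 0.00234). From day 4 to day 7 it rose by 0.70 ± 0.08 in TKO (7.69e-06) and by 0.65 ± 0.08 in WT (1.92e-05).

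**Figure D2:**
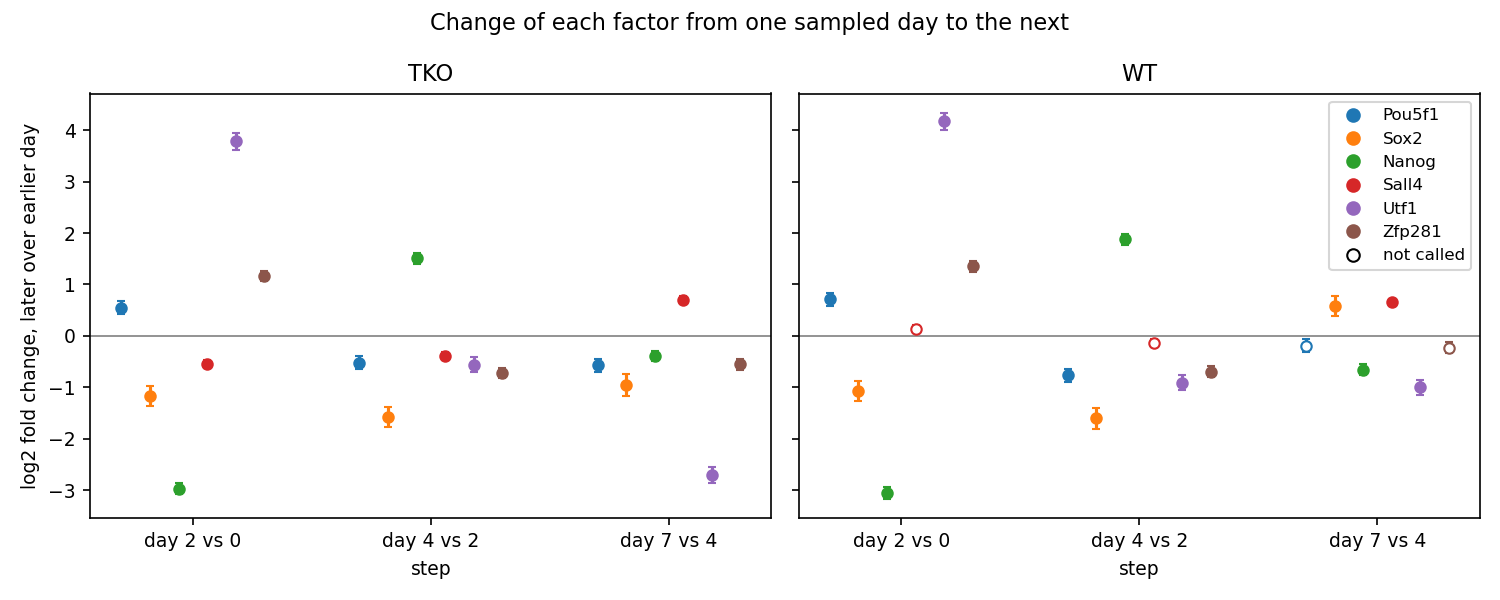
Log2 fold change of each factor from one sampled day to the next, later over earlier day, in TKO and in WT; bars are standard errors and open symbols were not called. Nanog and Utf1 move furthest on the first step, in opposite directions, and on the last step Sox2 is below 0 in TKO and above 0 in WT.

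As counts, 3 of the 6 factors rose and 3 fell from day 0 to day 2 in TKO, beside 31.5% and 25.5% of all genes tested, and 3 rose and 2 fell in WT, beside 32.9% and 28.6%. From day 2 to day 4 Nanog alone rose and the other 5 fell in TKO (24.5% and 20.9% of all genes), and in WT Nanog rose and 4 fell (26.2% and 28.2%). For the step to day 7, 1 rose and 5 fell in TKO (21.9% and 23.5%), and 2 rose and 2 fell in WT (17.7% and 19.1%). Over the whole course from day 0 to day 7, 1 rose and 4 fell in TKO (36.1% and 31.7%), and 3 rose and 2 fell in WT (32.9% and 33.2%). The Sall4 fall in TKO (-0.23 ± 0.08, edgeR adjusted p = 0.0168) was called in 7 of 12 alternatives and turned sign on TPM. In WT the Pou5f1 change was not called (-0.24 ± 0.13, 0.104). With a library left out it ran between -0.412 and -0.001, and on TPM it turned sign.

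The second question was whether TKO cells held these factors at the WT level on each day. Nanog was not called on any day. Sall4 was higher in TKO on day 0 and lower from day 2, but its day 2 call held in only 5 of 13 alternatives. On day 7 Pou5f1, Sox2, Sall4, Utf1 and Zfp281 were all lower. Of the 6 factors 1 was called higher in TKO on day 0 and 0 lower, beside 4.52% and 8.16% of all genes tested. On day 2 edgeR called 0 higher and 1 lower (7.91% and 5.52% of all genes), on day 4 0 higher and 1 lower (17.8% and 11.1%), and on day 7 0 higher and 5 lower (23.4% and 21.1%). At an unadjusted p under 0.05 the counts were 1 higher and 0 lower on day 0, 0 and 2 on day 2, 0 and 1 on day 4, and 0 and 5 on day 7. DESeq2 made the same counts as edgeR on each day. The median log2 fold change of the 6 was 0.10, -0.27, -0.15 and -0.47 on days 0, 2, 4 and 7, beside -0.03, -0.01, 0.01 and 0.00 over all genes.

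Sox2 on day 7 was the largest of these differences, at 16.1 ± 1.05 CPM in TKO and 56.5 ± 3.66 in WT (SD, n = 2 each; log2 fold change -1.81 ± 0.21, adjusted p = 2.11e-05). Utf1 followed, at 27.4 ± 0.231 CPM in TKO and 84.1 ± 7.33 in WT (-1.62 ± 0.15, 2.11e-06). Both calls held in all 13 alternatives run, between -1.91 and -1.59 for Sox2 and between -1.75 and -1.44 for Utf1. For both genes the change from day 4 to day 7 itself differed between the genotypes, by -1.53 ± 0.29 for Sox2 (0.00266) and -1.71 ± 0.21 for Utf1 (8.84e-05). In that difference between the genotypes edgeR called these 2 of 6 factors, both lower, and 0 higher (0 also at an unadjusted p under 0.05 and in DESeq2). Over all genes 9.81% were lower and 8.96% higher.

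Before day 7 Sox2 and Utf1 were not called apart. Sox2 differed by -0.22 ± 0.19 on day 0 (adjusted p = 0.504), -0.31 ± 0.19 on day 2 (0.315) and -0.28 ± 0.20 on day 4 (0.321), and its TKO libraries lay below those of WT on days 0 and 2. The day 4 value depended on the TKO library: without TKO replicate 1 it was -0.77 (0.00149), and without TKO replicate 2 it was 0.07 (0.75). On day 2 the TKO libraries of Utf1, Pou5f1 (-0.29 ± 0.13, 0.138) and Zfp281 (-0.11 ± 0.10, 0.53) also lay below those of WT without a call. Utf1 differed by 0.13 ± 0.16 on day 0 (0.647), -0.26 ± 0.14 on day 2 (0.241) and 0.09 ± 0.14 on day 4 (0.7).

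Sall4 averaged 176 ± 1.24 CPM in TKO, against 134 ± 4.31 in WT on day 0 (0.40 ± 0.08, adjusted p = 0.00502). On day 4 it averaged 92.3 ± 7.42 CPM in TKO, against 133 ± 8.68 in WT (-0.53 ± 0.08, 0.000224), and on day 7 it averaged 150.2 ± 3.32 CPM in TKO, against 209 ± 14.3 in WT (-0.47 ± 0.08, 0.000233). Its call on day 0 did not hold with an offset for effective length (0.27, 0.075) or when only the 4 libraries of that day were fitted (0.43, 0.0829). The day 2 difference of -0.28 ± 0.08 (0.0295) was called in 5 of 13 alternatives. The day 7 value was smaller on TPM, at -0.29 (0.013).

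Zfp281 averaged 80.6 ± 3.26 CPM in TKO, against 111 ± 1.53 in WT on day 7 (-0.46 ± 0.11, adjusted p = 0.00286), and on TPM values the call was lost (-0.30, 0.169). Pou5f1 averaged 594 ± 1.97 CPM in TKO, against 801 ± 31.0 in WT on day 7 (-0.43 ± 0.13, 0.0134). Its call was lost without WT replicate 2 (0.0527), and its value was smaller on TPM (-0.28, 0.0198). On day 0 the WT libraries of Pou5f1 were far apart: the difference of -0.12 ± 0.13 (0.582) was 0.12 (0.59) without WT replicate 1 and -0.31 (0.0439) without WT replicate 2. Zfp281 on day 0 likewise turned on those libraries, at 0.09 ± 0.11 (0.657), -0.09 (0.616) without WT replicate 1 and 0.31 (0.0281) without WT replicate 2.

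Nanog differed by 0.11 ± 0.10 on day 0 (adjusted p = 0.528), 0.20 ± 0.11 on day 2 (0.242), -0.18 ± 0.10 on day 4 (0.233) and 0.09 ± 0.11 on day 7 (0.515). The 95% intervals of these log2 differences were -0.11 to 0.34, -0.03 to 0.42, -0.40 to 0.05 and -0.14 to 0.32. The TKO libraries nevertheless lay above those of WT on days 0, 2 and 7, and on TPM the day 2 difference was called (0.36, 0.0472). On day 4 the value was -0.34 (0.0308) without WT replicate 1 and 0.01 (0.976) without WT replicate 2. Averaged over the 4 days, edgeR called 5 of 6 factors lower in TKO and 0 higher (22.2% and 22.4% of all genes; 0 higher also at an unadjusted p under 0.05 and in DESeq2), and Nanog was not called (0.06 ± 0.05, 0.423). The Zfp281 average of -0.15 ± 0.05 (0.0282) was lost in 12 of 24 alternatives: the stricter filter (0.0794), both TPM fits and 9 of the omissions of a single library (0.0537 to 0.0748). On TPM the averages of Pou5f1 (0.137), Sall4 (0.0524) and Zfp281 (0.918) were no longer called, and Nanog was called higher (0.20, 0.00995). The TPM scale moved the median of all genes by up to 0.165 in these genotype contrasts.

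**Figure D3:**
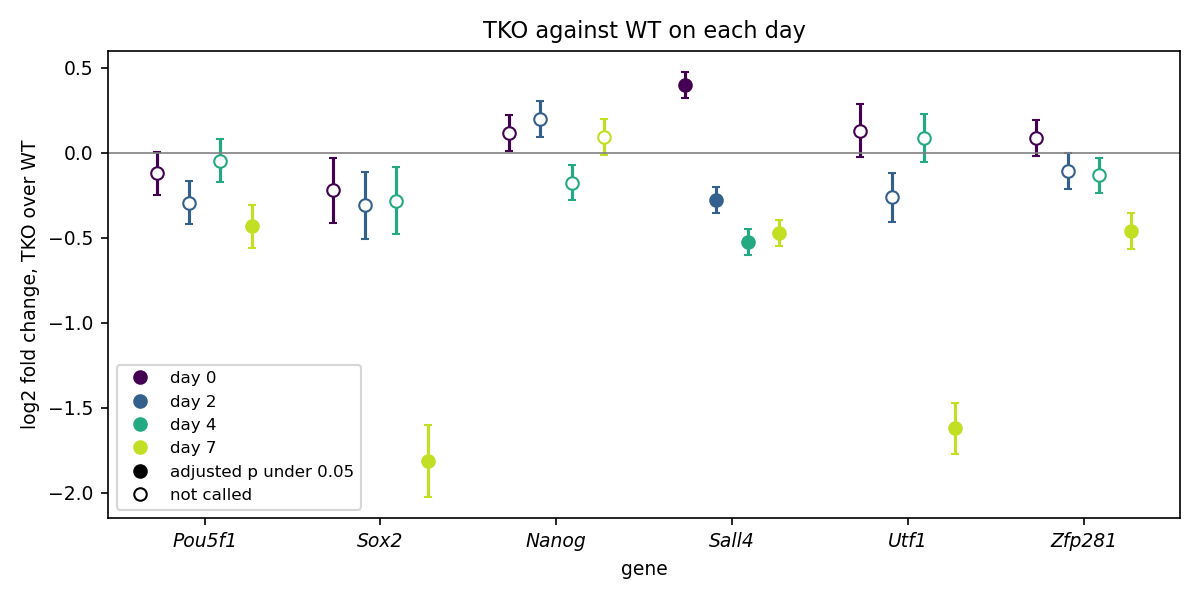
Log2 fold change of TKO over WT for each factor on days 0, 2, 4 and 7; bars are standard errors, filled symbols were called at an adjusted p under 0.05 and open ones were not. Sox2 and Utf1 stand near 0 until day 4 and below -1.5 on day 7, while Nanog is open on every day.

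Sall4 and Zfp281 also differed in their change from day 0 to day 7, by -0.87 ± 0.11 (adjusted p = 5.40e-05) and -0.55 ± 0.15 (0.0146), as did Utf1 (-1.75 ± 0.22, 5.43e-05) and Sox2 (-1.59 ± 0.28, 0.0012), so that edgeR called 4 of 6 lower and 0 higher (0 also at an unadjusted p under 0.05 and in DESeq2), beside 11.3% and 15.8% of all genes. Pou5f1 (-0.31 ± 0.18, 0.229) and Nanog (-0.02 ± 0.15, 0.955) were not called, but without WT day 0 replicate 1 Pou5f1 was (-0.55, 0.00793). The Zfp281 call was lost on TPM (0.096). With all libraries fitted, the genotype difference in the step from day 0 to day 2 was called for Sall4 alone of the 6. Over all genes it was called lower for 1.8% and higher for 5.76%. Utf1 was called as well without WT day 0 replicate 1 (-0.66, 0.0452), and Zfp281 without WT day 0 replicate 2 (-0.39, 0.0487). For the step from day 2 to day 4 edgeR called this difference in 0 of 6, where 2 had an unadjusted p under 0.05. DESeq2 also called 0. Over all genes edgeR called 3.95% lower and 7.75% higher. For Nanog that difference was called without WT day 4 replicate 1 (-0.56), and otherwise was not (-0.37 ± 0.15, 0.131).

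In bulk RNA, fewer cells of a type and less RNA per cell cannot be told apart, and markers of other cell types moved on day 7 as well. Beside the marker counts that follow, 23.4% of all genes tested were higher in TKO that day and 21.1% lower. Of 10 primitive streak and mesoderm markers 9 were tested, 8 were higher in TKO and 0 lower (0 lower also at an unadjusted p under 0.05 and in DESeq2), and their summed level was 938 to 968 CPM in TKO libraries and 188 to 230 in WT libraries. Neural markers, of which SOX2 is a well-known regulator, had 3 higher and 3 lower of 9 tested and summed to 503 to 511 CPM in TKO and 514 to 579 in WT. Endoderm markers had 3 higher and 3 lower of 10 (378 to 422 CPM in TKO, 303 to 412 in WT, with Afp at 0 counts in WT). Trophoblast markers had 2 higher and 4 lower of 10 (398 to 474 CPM in TKO, 887 to 916 in WT), and fibroblast markers 2 higher and 1 lower of 9 tested (86.9 to 91.7 CPM in TKO, 219 to 234 in WT, with Fap at 0 counts in TKO). Formative and primed markers, among them Dnmt3b itself, had 5 higher and 5 lower of 14 (means of 1521 ± 29.9 CPM in TKO, 2034 ± 97.3 in WT, SD). The part of any of these in the lower Sox2, Utf1, Sall4, Zfp281 and Pou5f1 was not tested.

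Partner transcription factors and known targets of OCT4 and SOX2 were compared next, with the members left out of these lists. Beside the counts of this and the later lists, 4.52%, 7.91%, 17.8% and 23.4% of all genes tested were higher in TKO on days 0, 2, 4 and 7. The shares lower were 8.16%, 5.52%, 11.1% and 21.1%. Values of single genes with a library left out are given for the members only, not for these lists. Of 18 partner factors 2 were higher and 0 lower in TKO on day 0 (1 lower at an unadjusted p under 0.05, 0 in DESeq2), 2 and 3 on day 2, 8 and 1 on day 4, and 6 and 3 on day 7, with medians of 0.13, -0.10, 0.58 and 0.19. The 2 higher on day 0 were Myc (0.73 ± 0.14, adjusted p = 0.00517) and Nacc1, a NANOG-binding BTB protein (0.25 ± 0.07, 0.0276). On day 2 Tfcp2l1, a naive factor (0.84 ± 0.19), and Stat3, which transmits LIF (0.36 ± 0.11), were higher, and Mycn (-0.44 ± 0.10) and Myc (-0.38 ± 0.10) lower. On day 4 Nr0b1, an orphan nuclear receptor (3.38 ± 0.34, 1.61e-05), and Stat3 (0.85 ± 0.11) were the 2 with the lowest adjusted p among the 8 higher, and Nacc1 was the 1 lower (-0.22 ± 0.07). On day 7 Klf4, a naive Krüppel-like factor, had 7.98 ± 1.57 CPM in TKO, against 2.00 ± 0.34 in WT (1.99 ± 0.20, 3.42e-06), and Arid3b (0.88 ± 0.15) was higher, while Mycn (-0.51 ± 0.10) and Tbx3 (-2.53 ± 0.52) were lower.

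Of 20 OCT4 and SOX2 targets 3 were higher and 0 lower on day 0 (2 lower at an unadjusted p under 0.05, 0 in DESeq2), 0 and 1 on day 2 (0 higher by either count), 9 and 1 on day 4 and 6 and 5 on day 7, with medians of 0.03, -0.09, 0.85 and 0.21. Over all genes tested 4.52%, 7.91%, 17.8% and 23.4% were higher on these days, and 8.16%, 5.52%, 11.1% and 21.1% lower. Lin28a, which binds let-7 precursors and blocks their processing, changed sides as Sall4 did: it was higher in TKO on day 0 (1.04 ± 0.08, adjusted p = 5.38e-06) and lower on day 2 (-0.38 ± 0.08), day 4 (-0.73 ± 0.08) and day 7 (-1.17 ± 0.08, 8.07e-08). L1td1, an RNA-binding protein derived from a LINE-1 element, was higher on day 0 (0.34 ± 0.09) and day 4 (0.91 ± 0.10). Fgf4, whose enhancer holds the classic OCT4 and SOX2 element, averaged 57.2 ± 11.8 CPM in TKO, against 18.3 ± 3.44 in WT on day 4 (1.64 ± 0.14, 2.27e-06). On day 7 Upp1 (1.78 ± 0.25) and Dppa4 (0.88 ± 0.15) were higher. Hesx1, an anterior epiblast homeobox gene, averaged 0.113 ± 0.0432 CPM in TKO, against 11.9 ± 3.08 in WT that day (-6.69 ± 0.53, 4.17e-07).

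Relatives of the factors were tested for 20 of 21 genes, with 1 higher and 3 lower in TKO on day 0, 4 and 0 on day 2 (2 lower at an unadjusted p under 0.05, 0 in DESeq2), 11 and 1 on day 4 and 6 and 4 on day 7. Over all genes tested 4.52%, 7.91%, 17.8% and 23.4% were higher on these days, and 8.16%, 5.52%, 11.1% and 21.1% lower. On day 0 Sox13 was higher (0.73 ± 0.11), and Pou6f1 (-0.87 ± 0.15) and Sox12 (-0.43 ± 0.07) were lower; Sox12 was lower also on day 4 (-0.23 ± 0.07) and day 7 (-0.61 ± 0.07). Sox1, a close relative of Sox2 that marks neural precursors, averaged 65.4 ± 12.7 CPM in TKO, against 17.5 ± 0.28 in WT on day 4 (1.90 ± 0.15, adjusted p = 1.49e-06). Sox21 was higher on day 2 (1.24 ± 0.28) and day 4 (4.00 ± 0.33), and Pou4f1, a sensory neuron POU factor, on day 2 (1.14 ± 0.17) and day 7 (2.78 ± 0.19, 1.29e-07). Pou6f1 was higher on day 7 (1.49 ± 0.14), and Sox17, an endoderm factor, was lower, at 4.72 ± 0.455 CPM in TKO and 35.0 ± 8.18 in WT (-2.89 ± 0.31, 6.65e-06).

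Subunits of chromatin complexes that these factors recruit were the last lists compared. Over all genes tested 4.52%, 7.91%, 17.8% and 23.4% were higher in TKO on days 0, 2, 4 and 7, and 8.16%, 5.52%, 11.1% and 21.1% lower. Of 12 NuRD subunits, the deacetylase and remodelling complex that SALL4 binds, 0 were higher and 2 lower on day 0, 0 and 2 on day 2, 3 and 4 on day 4 and 0 and 4 on day 7. At an unadjusted p under 0.05 the higher counts on days 0, 2 and 7 were 4, 0 and 0, and in DESeq2 3, 0 and 0. Mta3 was lower on day 0 (-0.32 ± 0.09), higher on day 4 (0.50 ± 0.08) and lower on day 7 (-0.52 ± 0.09, adjusted p = 0.000316), and the deacetylase Hdac1 was lower on day 2 (-0.37 ± 0.08), day 4 (-0.32 ± 0.08) and day 7 (-0.28 ± 0.08). Rbbp7 was lower on day 0 (-0.37 ± 0.11) and day 4 (-0.52 ± 0.11), Rbbp4 on day 2 (-0.34 ± 0.10), and Mbd2 was higher on day 4 (0.65 ± 0.15). The 12 SWI/SNF remodeller subunits were listed for the embryonic form esBAF but include Brd9 and Smarcc2, which are not particular to it. Of these 12, Arid1a was higher on day 0 (0.66 ± 0.16, 0.0205) and Smarce1 (-0.28 ± 0.08) and Actl6a (-0.25 ± 0.07) lower on day 2. edgeR called 0 lower on day 0 (0 also at an unadjusted p under 0.05 and in DESeq2) and 0 higher on day 2 (2 at an unadjusted p under 0.05 and 2 in DESeq2). On day 4 edgeR called 0 of 12 (1 higher and 4 lower at an unadjusted p under 0.05, 1 and 0 in DESeq2) and on day 7 also 0 (0 and 0, and 1 and 0 in DESeq2).

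The members did not share 1 pattern. Across the 8 group means of log2 CPM, Utf1 and Zfp281 were the most alike (Pearson r = 0.919) and Nanog and Zfp281 the most opposed (-0.82), as a description with no test. By the same measure over 12343 other protein-coding genes, those most like Pou5f1 were Atad3a (0.993), Psma4 (0.991) and Tcea1 (0.991), and those most like Sox2 were Etfb (0.987), Dus2 (0.987) and Slc1a5 (0.986). Nearest to Nanog were Mier3 (0.991), Fxyd6 (0.99) and Klhl15 (0.99), and to Utf1 Sinhcaf (0.987), Tal2 (0.984) and Ccdc85b (0.984). Zfp281 was nearest to C87436 (0.989), Tfe3 (0.985) and Bms1 (0.984). For Sall4 the nearest, Coa5 (0.92), Msn (0.914) and Ap2m1 (0.911), were less alike, and 0 genes exceeded 0.95, against 58 to 78 for the other members.

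The deposited tables are per transcript, and for 4 of the members several annotated transcripts were listed. The main form held 99.8% to 99.9% of the Pou5f1 counts and 97.3% to 98.9% of the Nanog counts in every library, while Sox2 and Utf1 had 1 transcript each. The main Sall4 form of 5073 bases held 72.3% to 97.9% of the Sall4 counts. Sall4-202, of 2534 bases, was estimated at 0.00% and 0.00% of the Sall4 counts in TKO on day 0, against 26.2% and 0.00% in WT. It reached 1.5% and 0.26% in TKO against 0.48% and 12.2% in WT on day 2, and 1.55% and 0.00% in TKO against 5.97% and 0.28% in WT on day 4. Its larger estimates thus came from 1 WT library a day, and they enter the effective lengths of the offset fit; their part in the Sall4 results was not tested.

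Zfp281-202, of 4937 bases, is nearly as long as the main Zfp281 form of 4933 bases, and its estimates are uncertain. It took 17.2% and 16.6% of the Zfp281 counts in TKO on day 0, against 18.3% and 33.3% in WT. On day 7 it took 33.7% and 33.8% in TKO, against 31.3% and 30.7% in WT. The replicates stood at 38.9% and 25.3% in TKO on day 4 and at 35.8% and 20.0% in WT on day 2, and no difference between genotypes was tested.

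**Figure D4:**
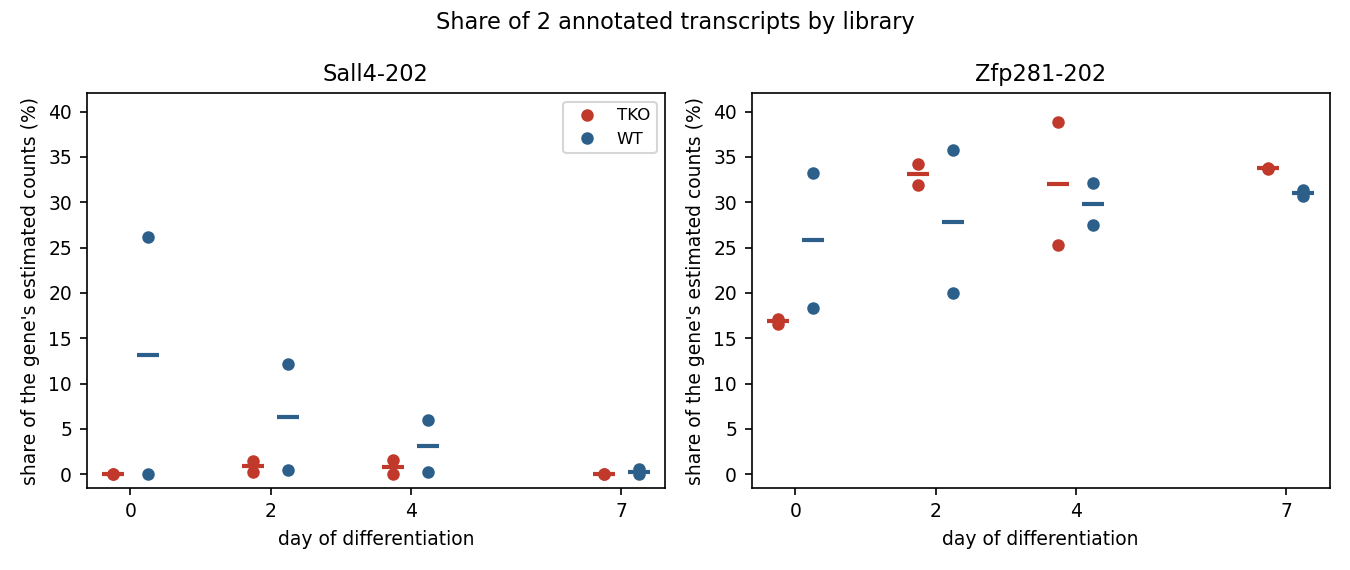
Share of the gene's estimated counts (percent) assigned to Sall4-202 and to Zfp281-202 by day, TKO in red left of WT in blue; points are libraries and short bars their means. Sall4-202 exceeds 5% in 1 WT library on each of days 0, 2 and 4 and in no TKO library.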

How the data were processed

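Stranded messenger RNA libraries of mouse cells were quantified per transcript by the authors with kallisto, version not given, against builds named GRCm38 and mm10, per the submitters' processing notes; the transcript annotation is not given in the sources used here. The deposited tables hold estimated counts (expected counts), not normalised, per the file headers, and TPM, scaled by the authors' tool for depth and effective length; the effective length itself is a column of other kind, in bases, per the file headers. Of 119414 transcripts 116728 (97.75%) matched GENCODE M21 by Ensembl ID without version; the rest held 0.946% to 1.05% of a library's counts and were left out. Estimated counts were summed per gene, rounded and fitted in R 4.3.3 by edgeR 4.0.16 (TMM scaling, filterByExpr by group, robust quasi-likelihood fit, 1 mean per group, 8 residual degrees of freedom; 18489 genes tested, common biological coefficient of variation 0.111), with Benjamini-Hochberg adjustment over all of them. The standard error of a log2 fold change is its size over the square root of the F statistic; ± on CPM and TPM is the SD over 2 libraries. TPM ranked genes within a group. Partner, target, complex, relative and marker lists were described by counts and medians, with no set test. Alternatives used DESeq2 1.42.0, limma 3.58.1 on log2(TPM + 1) and log2(TPM + 0.1), other scalings and filters, an effective-length offset, a replicate block and each library left out of the groups compared. The fit was tested on simulated data with known changes. The members, lists and named-gene rule (members in every comparison; up to 2 called genes per direction, list and day by adjusted p; the 3 most alike genes) were chosen with earlier results of these data known. The core ATGCAAA and the search for octamer and SOX cores placed as at Nanog were added after the promoter sequences were seen. Promoters matched 5 of 6 members.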

Additional observations from a re-analysis of the deposited data

Results flagged for a closer look

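The change over time differed between TKO and WT for several members, each by the edgeR interaction test with Benjamini-Hochberg adjustment over all genes and 2 libraries per group. From day 0 to day 2 this held for Sall4 (log2 difference of the steps -0.68, adjusted p = 0.00234), with both TKO libraries of day 2 below both of day 0 and both WT libraries of day 2 above both of day 0. From day 4 to day 7 it held for Sox2 (-1.53, 0.00266) and Utf1 (-1.71, 8.84e-05). From day 0 to day 7 it held for Sall4 (-0.87, 5.40e-05), Sox2 (-1.59, 0.0012), Utf1 (-1.75, 5.43e-05) and Zfp281 (-0.55, 0.0146).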

How the results depend on the processing

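Sox2 and Utf1 on day 7 kept direction and call in all 13 alternatives run. Over all comparisons of single members, 798 values under other settings kept their direction and stayed called or stayed uncalled. Of the others 15 turned sign, some of them also losing a call. Without turning sign, 23 lost a call and 4 gained a call. With a library left out 524 values kept both, 20 turned sign, and the rest lost or gained a call. The causes of the changes below were not tested. Values are log2 differences of TKO over WT unless a time step is named. Fitting only the 4 libraries compared gave 359, 3505, 2821 and 10495 genes called on days 0, 2, 4 and 7, against 2343, 2482, 5342 and 8228 in the fit of all libraries, and lost Sall4 on day 0 (0.428). The effective-length offset gave 1601 genes on day 2, against 2482, and 862 for the difference of the steps from day 0 to day 2, against 1398, and lost Sall4 on day 0 (0.274) and day 2 (-0.303). Without a filter Sall4 on day 2 was lost (-0.27), and with a stricter filter Nanog turned sign in the difference of the changes from day 0 to day 7 (0.045).

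The limma fits on log2(TPM + 1) and log2(TPM + 0.1) also shifted the median of all genes, by up to 0.24. They called 1171 and 1150 genes for the difference of the steps from day 2 to day 4, against 2163. For the difference of the steps from day 0 to day 2 the smaller pseudocount called 751, against 1398. Sall4 on day 2 (-0.137 and -0.14) and Zfp281 on day 7 (-0.298 and -0.307) were lost, and Nanog on day 2 was called (0.364 and 0.369). Signs turned for Pou5f1 on day 0 (0.059 in both) and day 4 (0.02 in both), Zfp281 on day 2 (0.066 and 0.067), and Sox2 in the difference of the steps from day 2 to day 4 (-0.12 and -0.129). Signs turned also for day 7 against day 0 in TKO for Sall4 (0.083 and 0.085) and Zfp281 (0.147 and 0.152), and in WT for Pou5f1 (0.048 in both).

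Leaving out 1 library at a time, the genes called numbered 687 to 4294 on day 0 and 579 to 2008 on day 2. For the difference of the steps they numbered 615 to 2166 from day 0 to day 2 and 1170 to 2346 from day 2 to day 4. On day 0 Pou5f1 ran between -0.305 and 0.115, Utf1 between -0.078 and 0.396 and Zfp281 between -0.091 and 0.306. Sall4 on day 2 ran between -0.302 and -0.261 and was not called in any of these fits. On day 4 Pou5f1 ran between -0.184 and 0.068, Sox2 between -0.765 and 0.071, Nanog between -0.341 and 0.008 and Utf1 between -0.05 and 0.203. On day 7 Pou5f1 ran between -0.512 and -0.425 and Nanog between -0.014 and 0.124. For the difference of the steps from day 0 to day 2 Pou5f1 ran between -0.412 and 0.034 and Sox2 between -0.197 and 0.033. From day 2 to day 4 Sox2 ran between -0.478 and 0.359 and Zfp281 between -0.128 and 0.059, and from day 4 to day 7 Sall4 between -0.061 and 0.105. Calls gained at these steps with a library left out are given beside the results.

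Over 28 pairs of groups, deviations of same-numbered libraries correlated at -0.636 to 0.159, with 2 over 0.1. Numbers may have been given differently from group to group, so these values cannot decide whether libraries of different groups were prepared together. With a replicate block 1992, 2098, 4972 and 7880 genes were called on days 0, 2, 4 and 7, against 2343, 2482, 5342 and 8228 without it, and no member's call changed.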
